A study of Mus musculus with 6 samples.

Results

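The matrix metalloproteinases (Mmp), the ADAMTS proteases, the ADAMTS-like proteins (Adamtsl) and the tissue inhibitors of metalloproteinases (Timp) were followed in healing mouse skin, with and without topical vemurafenib. The genes were matched by symbol alone, but the set was chosen with earlier results of these data known. Of the 23913 genes in the table, 51 matched: 23 Mmp, 19 Adamts, 5 Adamtsl and 4 Timp genes. Skin around incisional wounds of C3H mice was sequenced as RNA. The values come as 6 columns, 1 for each arm and day, and each column is called a library here. The groups were vemurafenib-treated wounds on days 2, 6 and 14, with the drug given every other day, and control wounds on the same days, which the sample labels call untreated and the methods of the study call vehicle (DMSO in PBS). All mice were of the same strain, no genotype beyond it is given, and the number of animals behind each library is not stated. Each value is given in FPKM (fragments per kilobase of transcript, relative to the mapped fragments compatible with annotated transcripts). Levels can thus be set beside each other between genes, but the depth behind them is unknown. Averaged over the 6 libraries, 1 FPKM or more was reached by 31 of the 51 genes (15 Mmp, 9 Adamts, 3 Adamtsl and 4 Timp) and by 13392 genes in all.

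Matrix metalloproteinases are zinc-dependent enzymes made as inactive precursors, and between them they cleave collagens, gelatin, elastin, laminins and other pro-enzymes. ADAMTS enzymes trim procollagens and cut proteoglycans such as versican and aggrecan, ADAMTS-like proteins lack the catalytic part, and TIMPs bind and block the active sites. In skin wounds these enzymes are made by keratinocytes of the migrating edge, neutrophils, macrophages and fibroblasts. Vemurafenib inhibits mutant BRAF and can raise MAPK signalling in cells with normal BRAF, and AP-1, a dimer of Fos and Jun proteins, is a known transcriptional output of that pathway.

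The libraries had the markers of skin: Krt5 and Krt14, keratins of basal keratinocytes, lay between 1332 and 8285 FPKM in all 6. Between 12746 and 13062 genes reached 1 FPKM in a library. In 4 columns (control day 2, vemurafenib day 6, control day 6, vemurafenib day 14), between 50.3% and 58.1% of the values carried over 6 significant digits, as averaged values would, while vemurafenib day 2 and control day 14 had 0.00561% and 0% such values. Vemurafenib day 2 and control day 14 had 6088 and 6000 genes at 0, more than the 5214 to 5446 of the remaining columns. Any separate values behind those 4 columns were not analysed here, so each column was used as 1 library, and a gap between vemurafenib and control on any day is without a replicate in these values. In whole tissue, fewer cells of a type and less RNA per cell cannot be told apart.

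Of the 23 Mmp genes, 10 lie side by side on chromosome 9 (mm9, 7272514 to 7699585, 427 kb), in the order Mmp13, Mmp12, Mmp1b, Mmp3, Mmp1a, Mmp10, Mmp8, Mmp27, Mmp20 and Mmp7. Their promoters were read because AP-1 elements near the start are a textbook feature of collagenase and stromelysin genes. The 120 bases upstream of the annotated start (RefSeq, GRCm38.p6) are shown for 5 genes of the cluster that hold an AP-1 match and for Mmp8, which does not. They are written 5′ to 3′ on the strand of the gene, and capitals mark the match to TGANTCA (N is any base, and the motif is its own reverse complement). The regions are chr9:7272394-7272513 for Mmp13, chr9:7445702-7445821 for Mmp3, chr9:7502222-7502341 for Mmp10, chr9:7347254-7347373 for Mmp12, chr9:7388027-7388146 on the minus strand for Mmp1b and chr9:7558309-7558428 for Mmp8.
Mmp13: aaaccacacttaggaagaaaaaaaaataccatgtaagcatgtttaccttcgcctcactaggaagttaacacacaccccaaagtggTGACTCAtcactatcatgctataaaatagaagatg
Mmp3: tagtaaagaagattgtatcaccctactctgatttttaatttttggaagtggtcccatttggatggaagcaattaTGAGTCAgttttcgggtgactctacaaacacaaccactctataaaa
Mmp10: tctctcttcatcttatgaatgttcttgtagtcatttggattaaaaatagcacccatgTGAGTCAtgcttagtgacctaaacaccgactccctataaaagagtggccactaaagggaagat
Mmp12: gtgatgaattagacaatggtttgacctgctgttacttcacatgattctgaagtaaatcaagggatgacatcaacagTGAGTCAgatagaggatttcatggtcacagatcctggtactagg
Mmp1b: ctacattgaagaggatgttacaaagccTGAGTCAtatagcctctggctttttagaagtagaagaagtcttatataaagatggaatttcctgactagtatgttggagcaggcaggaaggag
Mmp8: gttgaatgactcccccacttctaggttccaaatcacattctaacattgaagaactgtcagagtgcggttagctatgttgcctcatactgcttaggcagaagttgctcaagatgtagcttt

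The AP-1 letters began 35 bases before the start in Mmp13, 44 in Mmp12, 46 in Mmp3, 63 in Mmp10 and 93 in Mmp1b. Further matches stood 63 bases before the start in Mmp7, 73 in Mmp1a and 95 in Mmp20, and Mmp12 and Mmp7 each held theirs in only 1 of the windows listed for them. In windows of 300 bases (250 before the start and 50 after), 8 of the 10 cluster genes and none of the 26 other family members with a window had a match, against 8.97% of 27025 genes and 7.81% of 32851 windows. The PEA3 motif AGGAAG, searched on both strands, was found in 15 of the 36 members with a window, against 38.4% of genes and 35.4% of windows, and neither motif contains the other. No window was available for 15 members, among them Mmp2, Mmp9 and Mmp19. The matches describe letters in a window and were not tested as binding sites.

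**Figure D1:**
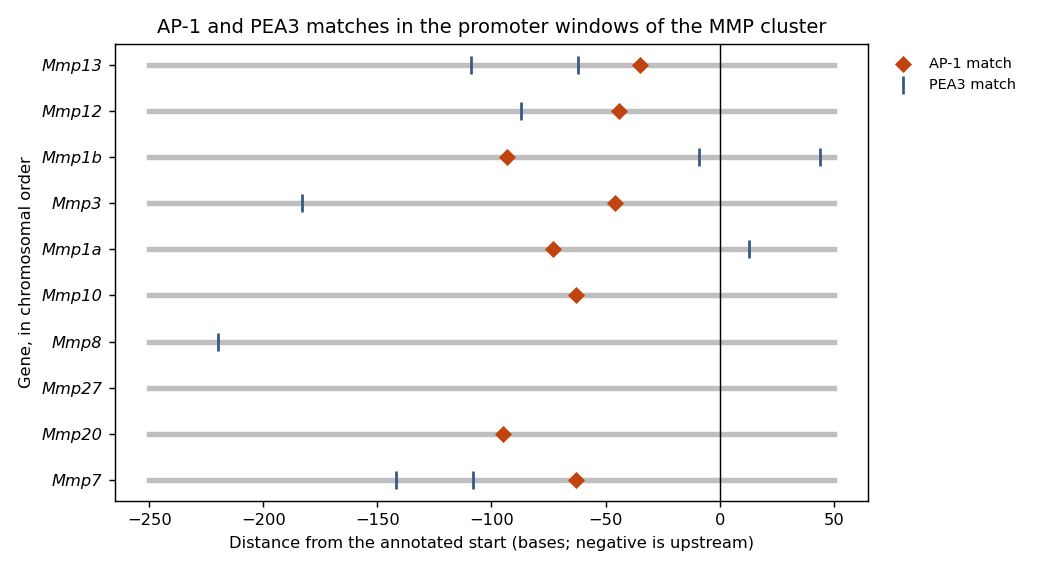
AP-1 (diamonds) and PEA3 (ticks) matches in the promoter windows of the 10 Mmp genes on chromosome 9, with the distance from the annotated start in bases on the horizontal axis and the genes in chromosomal order. AP-1 matches sit between 95 and 35 bases before the start in 8 genes, and Mmp8 and Mmp27 have none. Mmp12 and Mmp7 show the matches of all their windows together.

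Over the wound time course, 3 of the 6 cluster genes past the filter fell from day 2 to day 14 (Mmp13, Mmp10 and Mmp8), and none rose. Of the 25 members past the filter outside the cluster, 4 fell and 4 rose. Of all genes tested, 10.2% fell and 7.71% rose. Mmp13, Mmp10 and Mmp8 were under 1 FPKM on day 14 and met the filter through their earlier levels, which favours finding a fall. Of these 3, 2 have an AP-1 match while Mmp8 has none. Mmp3, Mmp12 and Mmp27 did not pass that test, which does not show that they differ from the other 3. The cluster's other 4 genes stayed below the filter, and these (Mmp1a, Mmp1b, Mmp7 and Mmp20) all hold a match.

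**Figure D2:**
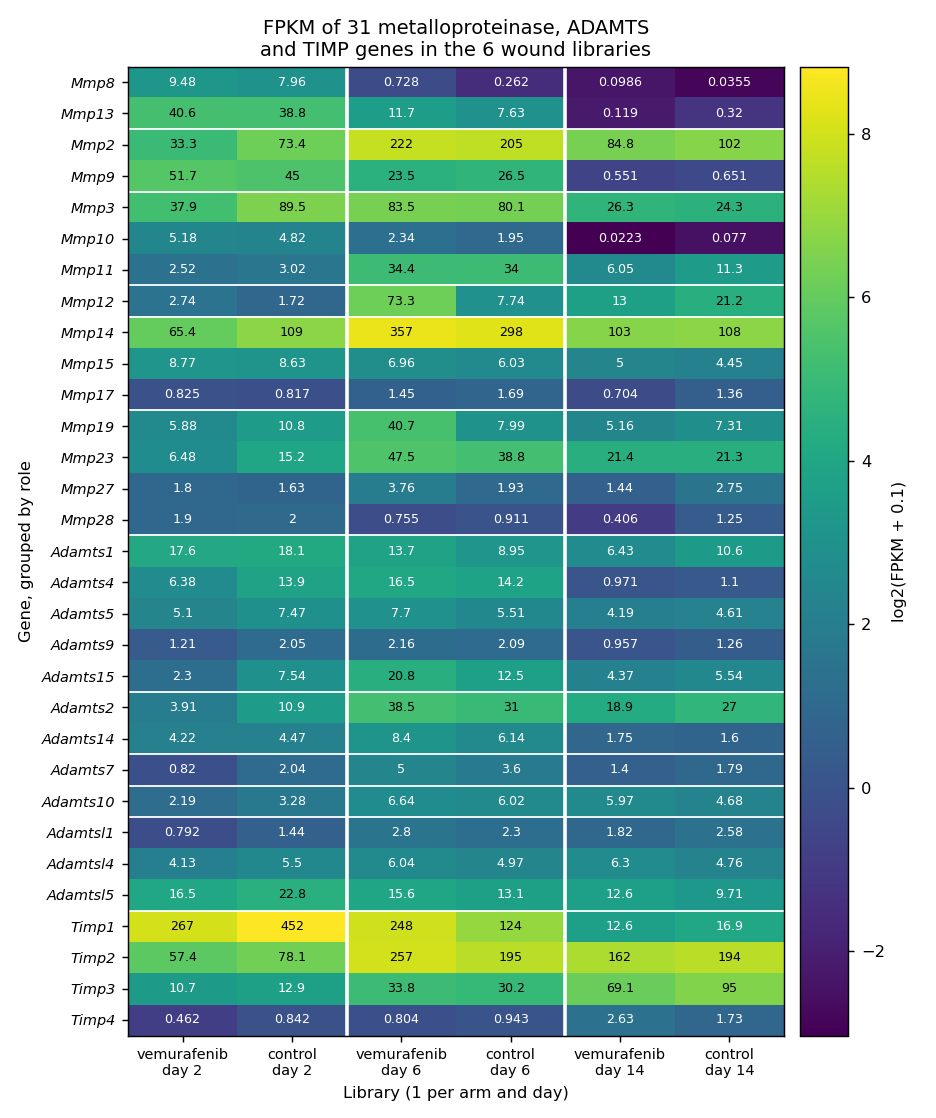
FPKM of the 31 genes past the filter in each library, with vemurafenib left of control on each day, genes grouped by role on the vertical axis and colour on a log2(FPKM + 0.1) scale. Timp1 is brightest on day 2 (452 FPKM in control), Mmp14 on day 6 (357 FPKM with vemurafenib), and Mmp8, Mmp10, Mmp13 and Mmp9 darken by day 14 in both arms.

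Time after wounding was compared first, because a change shared by both arms can be set against the spread between them. A linear model of log2(FPKM + 0.1) with arm and day was fitted with limma over all 13392 genes, and p-values were adjusted by the Benjamini-Hochberg method. Changes in log2 are on that scale, which understates those of genes near 0. Day 14 minus day 2 passed an adjusted p of 0.05 in 11 of the 31 members (35.5%, 4 up and 7 down), against 17.9% of all genes tested (7.71% up and 10.2% down). Day 6 minus day 2 passed in 9 members (29.0%, 7 up and 2 down), against 4.75% of all genes (2.93% up and 1.81% down). Day 14 minus day 6 passed in 7 members (22.6%), all of them down, against 3.64% of all genes (1.84% up and 1.8% down). In each of these comparisons the members' share was above that of all genes, and 14 different members passed at least once. Mmp8, Mmp9, Mmp10 and Mmp13 were under 1 FPKM in both day 14 libraries and met the filter through their earlier levels.

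The collagenases Mmp13 and Mmp8 fell from the early wound onward. Mmp13, the main fibrillar collagenase of rodents, stood at 40.6, 11.7 and 0.119 FPKM on days 2, 6 and 14 in the vemurafenib wounds, against 38.8, 7.63 and 0.320 FPKM in the control wounds. It fell by 2.06 ± 0.41 log2 units (SE) between days 2 and 6 (limma, adjusted p = 0.0457, up to 0.0982 and not called with total scaling, without the variance trend or when genes averaging under 5 FPKM were dropped) and was down by day 14 (-7.04 ± 0.41, adjusted p = 0.000176), and both day 14 libraries lay below every earlier one. Mmp8, the collagenase stored in neutrophil granules, had 9.48, 0.728 and 0.0986 FPKM in the vemurafenib wounds, against 7.96, 0.262 and 0.0355 FPKM in the control wounds. It fell by 4.01 ± 0.58 log2 units between days 2 and 6 (limma, adjusted p = 0.0157), more than Mmp13 in each arm, and day 14 minus day 2 was -5.74 ± 0.58 (adjusted p = 0.00134). Mmp1a and Mmp1b, the rodent relatives of human interstitial collagenase, can share reads, and neither passed the filter.

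Mmp9 and Mmp10 kept more of their level to day 6 and dropped afterwards in both arms. Mmp9, gelatinase B, which neutrophils carry and which cleaves basement membrane collagen, had 51.7, 23.5 and 0.551 FPKM in the vemurafenib wounds, against 45.01, 26.5 and 0.651 FPKM in the control wounds. Its change from day 6 to day 14 was -5.16 ± 0.27 log2 units (limma, adjusted p = 0.000602), and its change from day 2 to day 14 was -6.11 ± 0.27 (adjusted p = 6.95e-05), the lowest p of any member. The fall from day 2 to day 6 did not pass. Mmp10, stromelysin-2, a keratinocyte enzyme of the wound edge, had 5.18, 2.34 and 0.0223 FPKM in the vemurafenib wounds, against 4.82, 1.95 and 0.0770 FPKM in the control wounds, and fell by 3.93 ± 0.50 log2 units from day 6 to day 14 (adjusted p = 0.0119), with -5.11 ± 0.50 for day 14 minus day 2 (adjusted p = 0.00124). Mmp3, stromelysin-1, which activates other pro-MMPs, remained far more abundant, with 37.9, 83.5 and 26.3 FPKM in the vemurafenib wounds, against 89.5, 80.1 and 24.3 FPKM in the control wounds. Day 14 lay below the earlier days in both arms, but neither day 14 minus day 6 (-1.69 ± 0.40, adjusted p = 0.0813) nor day 14 minus day 2 (-1.20 ± 0.40, adjusted p = 0.0915) passed.

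The neutrophil markers moved with these falls. Of 7 markers found, 5 fell from day 2 to day 6 and 6 from day 2 to day 14 (1.81% and 10.2% of all genes). Camp passed neither comparison (-0.89 for day 14 minus day 2). The summed level of the 7 was 9664, 731 and 48.4 FPKM on the 3 days in the vemurafenib wounds. In the control wounds it was 7578, 949 and 96.5 FPKM. Most of each sum came from S100a8 and S100a9 (4737 and 4248 FPKM in vemurafenib day 2). Ngp, a granule protein, was listed at 0 in vemurafenib day 14. Other sets fell too from day 2 to day 14. Of the skeletal muscle markers 4 of 4 passed (median -2.92), of the macrophage markers 3 of 8 (median -1.37) and of the keratinocyte markers Krt14 alone. The neutrophil median was -4.96. The part of any of these sets in the fall of Mmp8 and Mmp9 was not tested.

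A second group rose by day 6 and was highest on that day in both arms. Mmp14, the membrane-bound activator of pro-Mmp2, had 65.4, 357 and 103 FPKM on days 2, 6 and 14 in the vemurafenib wounds, against 109, 298 and 108 FPKM in the control wounds. Its rise by day 6 was 1.95 ± 0.35 log2 units (limma, adjusted p = 0.0318), and the drop to day 14 did not pass (-1.63 ± 0.35, adjusted p = 0.0611). Mmp2, gelatinase A, had 33.3, 222 and 84.8 FPKM in the vemurafenib wounds, against 73.4, 205 and 102 FPKM in the control wounds, and rose by 2.11 ± 0.37 log2 units by day 6 (adjusted p = 0.0318). On day 6 both genes lay above 200 FPKM in each arm, and together they made up 63.5% of the summed Mmp FPKM with vemurafenib and 70.0% in the control library. Mmp23, a type II membrane enzyme, had 6.48, 47.5 and 21.4 FPKM in the vemurafenib wounds, against 15.2, 38.8 and 21.3 FPKM in the control wounds, and rose by 2.10 ± 0.41 (adjusted p = 0.0412).

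Mmp11, stromelysin-3, an enzyme of stromal cells that furin activates inside the cell, was the only member apart from Mmp13 to pass all 3 comparisons of days. It had 2.52, 34.4 and 6.05 FPKM in the vemurafenib wounds, against 3.02, 34.0 and 11.3 FPKM in the control wounds. It rose by 3.59 ± 0.31 log2 units by day 6 (limma, adjusted p = 0.00357) and fell by 2.04 ± 0.31 to day 14 (adjusted p = 0.0232), where it was still above day 2 by 1.55 ± 0.31 (adjusted p = 0.018). The arms were nearly level on day 6 and further apart on day 14.

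**Figure D3:**
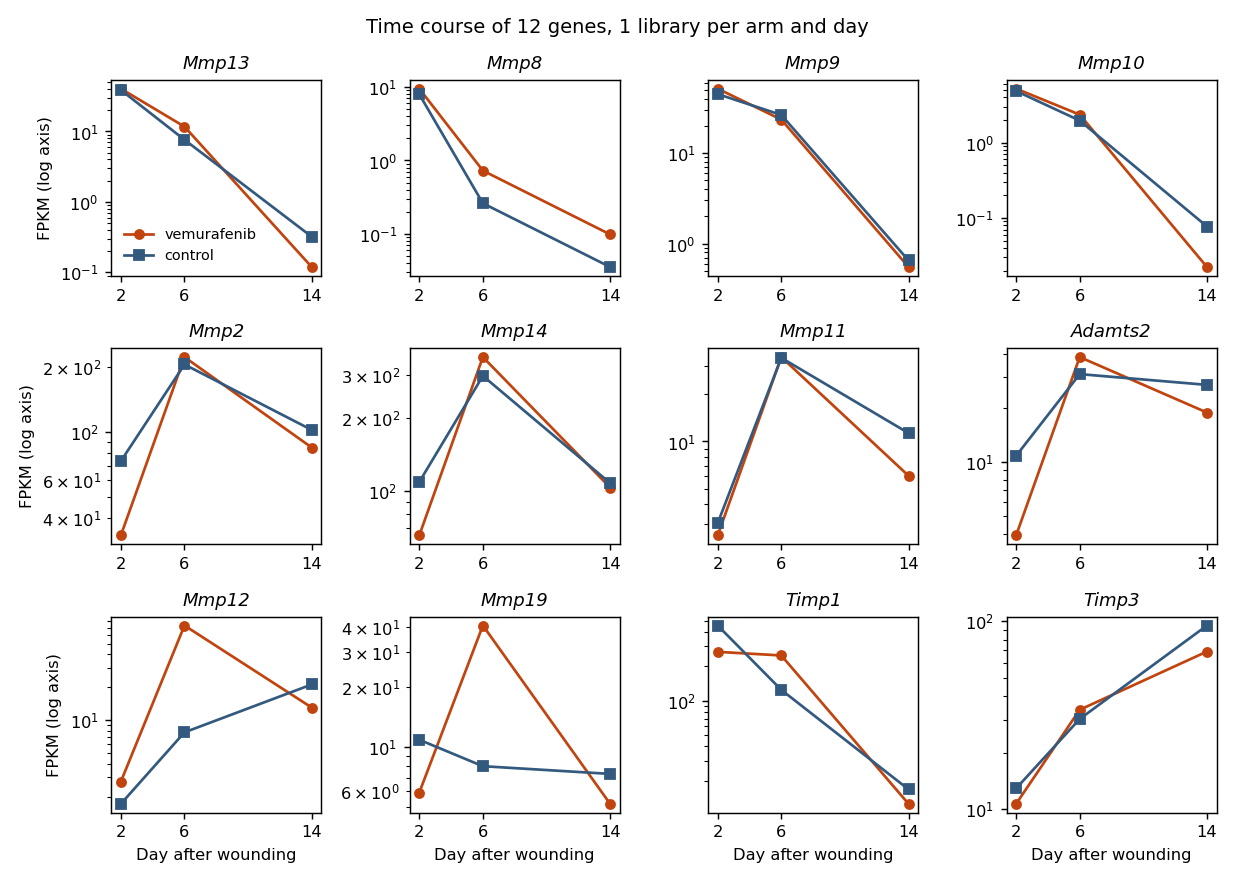
FPKM (log axis) of 12 genes against the day after wounding, with the vemurafenib libraries as circles and the control libraries as squares, 1 library per point and no error bars. Mmp13, Mmp8, Mmp9 and Mmp10 decline in both arms, Mmp2, Mmp14, Mmp11 and Adamts2 are highest on day 6 in both, and Mmp12 and Mmp19 peak on day 6 in the vemurafenib arm alone (73.3 and 40.7 FPKM).

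Among the ADAMTS genes, a procollagen N-proteinase followed the day 6 group. Adamts2, which removes the amino-terminal propeptide of fibrillar procollagens, had 3.91, 38.5 and 18.9 FPKM in the vemurafenib wounds, against 10.9, 30.97 and 27.0 FPKM in the control wounds. It rose by 2.39 ± 0.43 log2 units by day 6 (limma, adjusted p = 0.0334) and was 1.78 ± 0.43 above day 2 on day 14 (adjusted p = 0.0342, and 0.056 with the averaged columns given a weight of 2). Its drop from day 6 to day 14 did not pass (-0.61 ± 0.43, adjusted p = 0.511). Adamts14, its paralog with the same activity, was also highest on day 6 in both arms but ended below its day 2 level. Adamts14 had 4.22, 8.40 and 1.75 FPKM in the vemurafenib wounds, against 4.47, 6.14 and 1.60 FPKM in the control wounds. It fell by 2.04 ± 0.31 from day 6 to day 14 (adjusted p = 0.0211) and by 1.32 ± 0.31 from day 2 to day 14 (adjusted p = 0.0297, and 0.127 with total scaling).

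The proteoglycan-cleaving ADAMTS genes were less uniform. Adamts4, an aggrecanase induced by inflammatory cytokines, had 6.38, 16.5 and 0.971 FPKM in the vemurafenib wounds, against 13.9, 14.2 and 1.10 FPKM in the control wounds, and fell by 3.77 ± 0.38 log2 units from day 6 to day 14 (limma, adjusted p = 0.00516), with -3.07 ± 0.38 for day 14 minus day 2 (adjusted p = 0.00307). It was the only one of 5 such genes past the filter to pass a comparison of days. Adamts1, which cleaves versican and aggrecan, had 17.6, 13.7 and 6.43 FPKM in the vemurafenib wounds, against 18.1, 8.95 and 10.6 FPKM in the control wounds. Adamts15, another versican-cleaving enzyme, had 2.30, 20.8 and 4.37 FPKM in the vemurafenib wounds, against 7.54, 12.5 and 5.54 FPKM in the control wounds. Day 6 was the highest day for Adamts15 in both arms, but its rise of 1.92 ± 0.54 did not pass (adjusted p = 0.117). Adamts5, an aggrecanase, had 5.10, 7.70 and 4.19 FPKM in the vemurafenib wounds, against 7.47, 5.51 and 4.61 FPKM in the control wounds. Adamts9, a versican-cleaving enzyme, had 1.21, 2.16 and 0.957 FPKM in the vemurafenib wounds, against 2.05, 2.09 and 1.26 FPKM in the control wounds.

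Of the remaining ADAMTS and ADAMTS-like genes past the filter, none passed a comparison of days. Adamts7, which cleaves cartilage oligomeric matrix protein, had 0.820, 5.005 and 1.40 FPKM in the vemurafenib wounds, against 2.04, 3.604 and 1.79 FPKM in the control wounds. Adamts10, linked to fibrillin microfibrils, had 2.19, 6.64 and 5.97 FPKM in the vemurafenib wounds, against 3.28, 6.02 and 4.68 FPKM in the control wounds. The highest of the ADAMTS-like genes was Adamtsl5, with 16.5, 15.6 and 12.6 FPKM in the vemurafenib wounds, against 22.8, 13.1 and 9.71 FPKM in the control wounds. Adamtsl4, a fibrillin-binding protein, had 4.13, 6.04 and 6.30 FPKM in the vemurafenib wounds, against 5.50, 4.97 and 4.76 FPKM in the control wounds. Adamtsl1 was the lowest of the 3, with 0.792, 2.80 and 1.82 FPKM in the vemurafenib wounds, against 1.44, 2.30 and 2.58 FPKM in the control wounds.

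The other Mmp genes past the filter did not pass a comparison of days either. Mmp15, a membrane-type enzyme, had 8.77, 6.96 and 5.004 FPKM on days 2, 6 and 14 in the vemurafenib wounds, against 8.63, 6.03 and 4.45 FPKM in the control wounds, with no call (day 14 minus day 2, -0.87 ± 0.26, adjusted p = 0.0706). Mmp17, which is held at the membrane by a lipid anchor, had 0.825, 1.45 and 0.704 FPKM in the vemurafenib wounds, against 0.817, 1.69 and 1.36 FPKM in the control wounds. Mmp27 had 1.80, 3.76 and 1.44 FPKM in the vemurafenib wounds, against 1.63, 1.93 and 2.75 FPKM in the control wounds. All of these stayed low, as did Mmp28, epilysin, an enzyme of keratinocytes, with 1.90, 0.755 and 0.406 FPKM in the vemurafenib wounds, against 2.00, 0.911 and 1.25 FPKM in the control wounds. Mmp19 had 5.88, 40.7 and 5.16 FPKM in the vemurafenib wounds, against 10.8, 7.99 and 7.31 FPKM in the control wounds. Mmp12, the elastase of macrophages, had 2.74, 73.3 and 13.04 FPKM in the vemurafenib wounds, against 1.72, 7.74 and 21.2 FPKM in the control wounds. It was 3.40 ± 0.82 log2 units higher on day 6 than on day 2, with the largest standard error of any member (adjusted p = 0.0789), and its arms differed on day 6.

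The fibroblast markers rose with the day 6 group. Of 6 markers, 4 rose from day 2 to day 6, against 2.93% of all genes. The sum was 354, 5386 and 1773 FPKM on the 3 days in the vemurafenib wounds. In the control wounds it was 590, 3861 and 2863 FPKM, with no marker at 0. All 6 were highest on day 6 in the vemurafenib arm. In the control arm, Col3a1, Lum and Dcn were highest on day 14 (1208, 134 and 394 FPKM) and the others on day 6. From day 6 to day 14 none of the markers passed. The mast cell markers rose from day 2 to day 6 too, 3 of 4, with a median of 2.48, against 2.90 for the fibroblast markers. The part of either set in the rise of Mmp2, Mmp11, Mmp14, Mmp23 and Adamts2 was not tested.

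The inhibitors changed places over the course. Timp1, which blocks most secreted MMPs but membrane-type enzymes poorly, had 267, 248 and 12.6 FPKM on days 2, 6 and 14 in the vemurafenib wounds, against 452, 124 and 16.9 FPKM in the control wounds. It fell by 3.58 ± 0.46 log2 units from day 6 to day 14 (limma, adjusted p = 0.0119), and day 14 minus day 2 was -4.56 ± 0.46 (adjusted p = 0.00134). Timp2, which inhibits Mmp2 and also helps Mmp14 to activate it, had 57.4, 257 and 162 FPKM in the vemurafenib wounds, against 78.1, 195 and 194 FPKM in the control wounds, and rose by 1.74 ± 0.33 by day 6 (adjusted p = 0.0397), remaining 1.41 ± 0.33 above day 2 on day 14 (adjusted p = 0.0315). Timp3, which binds to the matrix and also inhibits ADAMTS enzymes and ADAM17, had 10.7, 33.8 and 69.1 FPKM in the vemurafenib wounds, against 12.9, 30.2 and 95.0 FPKM in the control wounds. It rose by 1.44 ± 0.29 by day 6 and by 2.77 ± 0.29 by day 14 (adjusted p = 0.046 and 0.00157), the first not called with total scaling (0.0535) or a pseudocount of 1 FPKM (0.0546), and each later day lay above the one before in both arms. Timp4, known mainly from heart and fat, remained low, with 0.462, 0.804 and 2.63 FPKM in the vemurafenib wounds, against 0.842, 0.943 and 1.73 FPKM in the control wounds (day 14 minus day 2, 1.62 ± 0.55, adjusted p = 0.0932).

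Timp1 therefore made up 79.6%, 46.0% and 5.12% of the summed Timp FPKM on days 2, 6 and 14 in the vemurafenib wounds, against 83.1%, 35.4% and 5.48% in the control wounds. Timp2 took the largest share on days 6 and 14, with 47.6% and 65.8% with vemurafenib and 55.7% and 63.1% in the control wounds, and Timp3 reached 28.0% with vemurafenib and 30.9% in the control on day 14. The summed Mmp level was 276, 911 and 269 FPKM in the vemurafenib wounds, against 415, 720 and 307 FPKM in the control wounds, so both arms were highest on day 6. Summed Timp FPKM per summed Mmp FPKM was 1.21, 0.592 and 0.917 in the vemurafenib wounds, against 1.31, 0.488 and 1.003 in the control wounds, with the lowest ratio on day 6 in both. These are ratios of RNA over whole families, include enzymes a given TIMP inhibits poorly, and have 1 library each.

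**Figure D4:**
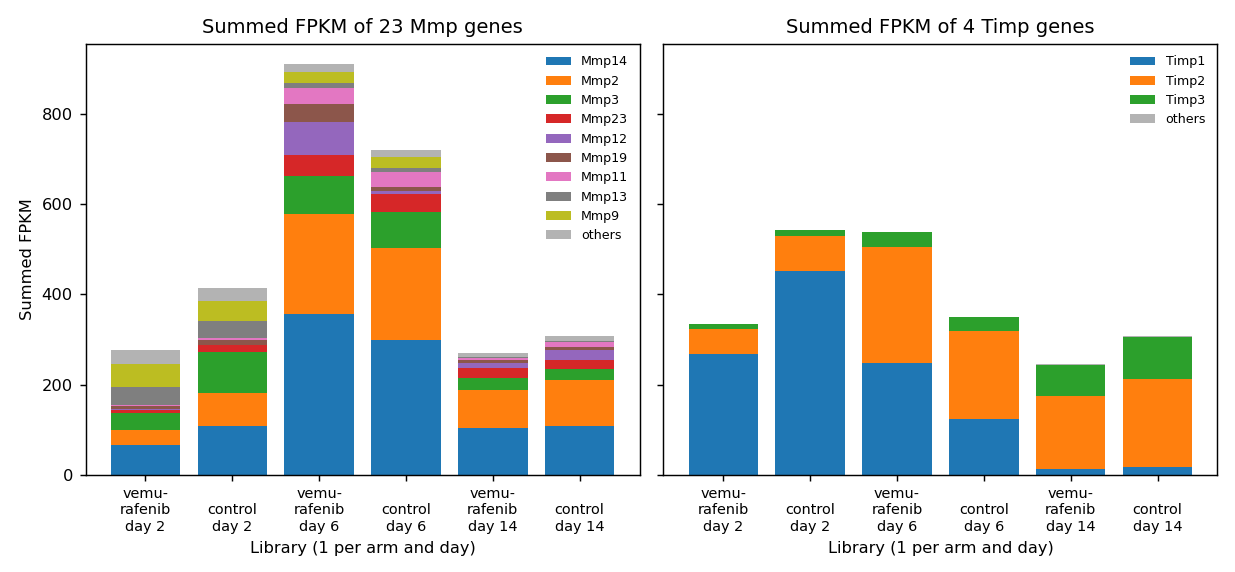
Summed FPKM of the 23 Mmp genes (left) and 4 Timp genes (right) in each library, stacked by gene, with bars from 0 and no error bars because each is 1 library. The Mmp bars are highest on day 6 (911 with vemurafenib, 720 in control), and the Timp1 part shrinks from most of the Timp bar on day 2 to 5.12% with vemurafenib and 5.48% in control on day 14.

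The calls for time rest on few degrees of freedom and on the filter. With no filter on the mean, all 27 calls of members were lost (adjusted p between 0.0632 and 0.319), and without either day 14 library limma called no gene in any comparison, with 1411 to 4454 genes at an unadjusted p under 0.05 in the comparisons of days. Among the members there were 14 or 15 at that p for day 6 minus day 2, 10 or 11 for day 14 minus day 6 and 12 or 14 for day 14 minus day 2. Without vemurafenib day 2, only the calls of Mmp8 and Mmp11 remained among the 9 of day 6 minus day 2, and without vemurafenib day 6 only those and Mmp13, while the directions of all 27 calls held in every alternative that tested them. Exons of Mmp28, Adamts7, Adamts9 and Timp3 overlap those of a gene on the other strand (1700020L24Rik, Tbc1d2b, A730049H05Rik and Syn3) and exons of Mmp11 and Mmp17 those of a gene on the same strand (Gm867 and AC114657.1), so their levels are uncertain where the counting could not part them.

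Vemurafenib was then compared with the control. In the fit over all days, the effect of vemurafenib common to the 3 days passed in 0 of 31 members, with 0 at an unadjusted p under 0.05, against 1 of 13392 genes (0.00747%, and 303 genes unadjusted) by limma. Each day was therefore described by its own ratio of the vemurafenib to the control library, with 2-fold as the line and no test.

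On day 2, the members lay on the low side with vemurafenib. None was at least 2-fold higher (1.43% of all genes were) and 7 were at least 2-fold lower, 22.6% of the members against 3.26% of all genes. The median log2 ratio was -0.46, against 0 over all genes, and 23 of 31 members were lower. Higher were 8 members (25.8%, against 49.8% of all genes). The 7 genes were Adamts15 (-1.67), Adamts2 (-1.45), Mmp3 (-1.24), Adamts7 (-1.22), Mmp23 (-1.22), Mmp2 (-1.14) and Adamts4 (-1.11). Mmp2, Mmp23 and Adamts2 were thus lower in the library where the fibroblast markers summed to 354 FPKM, against 590 FPKM in the control, and all 6 of those markers were lower with vemurafenib (median -0.83). The mast cell markers were lower as well, with a sum of 11.7 FPKM with vemurafenib and 48.3 FPKM in the control. All 5 endothelial markers were lower too (median -0.40). Other sets went the other way: 7 of 7 neutrophil markers (median 0.37), 4 of 6 keratinocyte markers (0.38) and 4 of 4 skeletal muscle markers (0.09) were higher with vemurafenib. The inflammatory-phase genes Mmp13, Mmp8, Mmp9 and Mmp10 differed by at most 0.25 log2 units on that day, and Timp1 by -0.76. The part of these markers, and of the different form of the vemurafenib day 2 column, was not tested.

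On day 6, the members lay on the high side, and a few stood out. At least 2-fold higher were 3 members, 9.68% against 5.29% of all genes, and none was 2-fold lower (5.03% of all genes were). The median was 0.27, against 0.04 over all genes, and 27 of 31 were higher (87.1%, against 54.5% of all genes). Mmp12, macrophage elastase, was at 73.3 FPKM with vemurafenib and 7.74 FPKM in the control, a log2 ratio of 3.23, the largest of any member on any day. Mmp19, an enzyme found in skin keratinocytes and myeloid cells, was at 40.7 FPKM with vemurafenib and 7.99 FPKM in the control (2.34). Mmp8 was at 0.728 FPKM with vemurafenib and 0.262 FPKM in the control, both low, and its ratio of 1.19 dropped to 0.45 with a pseudocount of 1 FPKM. Timp1 lay just under the line (0.996), with 248 FPKM with vemurafenib and 124 FPKM in the control.

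The macrophage markers moved the same way. All 8 of those found were higher with vemurafenib on day 6, 5 of them at least 2-fold, with a median log2 ratio of 1.52 and a sum of 1001 FPKM, against 506 FPKM in the control. None was at 0. On day 2, only 1 of the 8 (Cd14) was higher with vemurafenib, with a median of -0.52. The day 2 sums, 1262 FPKM with vemurafenib and 1364 FPKM in the control, held 910 and 692 FPKM of Cd14. On day 6, the keratinocyte markers went the other way, with all 6 at least 2-fold lower (median -1.35). Their sum was 8619 FPKM with vemurafenib and 23110 FPKM in the control. The fibroblast markers (6 of 6, median 0.39, sum 5386 FPKM with vemurafenib and 3861 FPKM in the control), the endothelial markers (5 of 5, median 0.48, sum 81.6 FPKM with vemurafenib and 55.3 FPKM in the control) and the skeletal muscle markers (4 of 4, 3 at least 2-fold, median 1.18, sum 5969 FPKM with vemurafenib and 2616 FPKM in the control) were higher as well, with none at 0. Of the 7 neutrophil markers, 4 were higher with vemurafenib on day 6, 3 of them at least 2-fold (median 0.59). Their sum was lower, with 731 FPKM with vemurafenib and 949 FPKM in the control. The part of these marker sets in the ratios of Mmp8, Mmp12, Mmp19 and Timp1, and in the 27 members that were higher, was not tested. Exons of Mmp12 overlap those of Mmp1b and exons of Mmp19 those of 1110012D08Rik, in each case on the other strand, and whether reads were counted by strand is not given in the sources used here. Mmp1b itself was at 0.138 FPKM with vemurafenib and 0.126 FPKM in the control on day 6.

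On day 14, the members again lay on the low side. None was 2-fold higher (3.64% of all genes were) and 1 was 2-fold lower, 3.23% of members against 7.66% of all genes. That gene was Mmp28, at 0.406 FPKM with vemurafenib and 1.25 FPKM in the control (-1.42), and it did not reach 2-fold with a pseudocount of 1 FPKM (-0.68). The median was -0.33, against -0.12 over all genes, and 22 of 31 were lower. Higher were 9 members (29.0%, against 42.4% of all genes). Mmp12 was at 13.04 FPKM with vemurafenib and 21.2 FPKM in the control, so the order of the arms on day 6 was not kept. Mmp13 was at 0.119 FPKM with vemurafenib and 0.320 FPKM in the control, both near 0. The fibroblast markers were lower too on that day, 6 of 6 with a median of -0.68 and a sum of 1773 FPKM with vemurafenib and 2863 FPKM in the control. The skeletal muscle markers, of which all 4 were at least 2-fold higher with vemurafenib (sum 3420 FPKM, against 1051 FPKM in the control), were the set that stood furthest apart by its median (1.83). The part of both sets in the members' ratios was not tested.

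**Figure D5:**
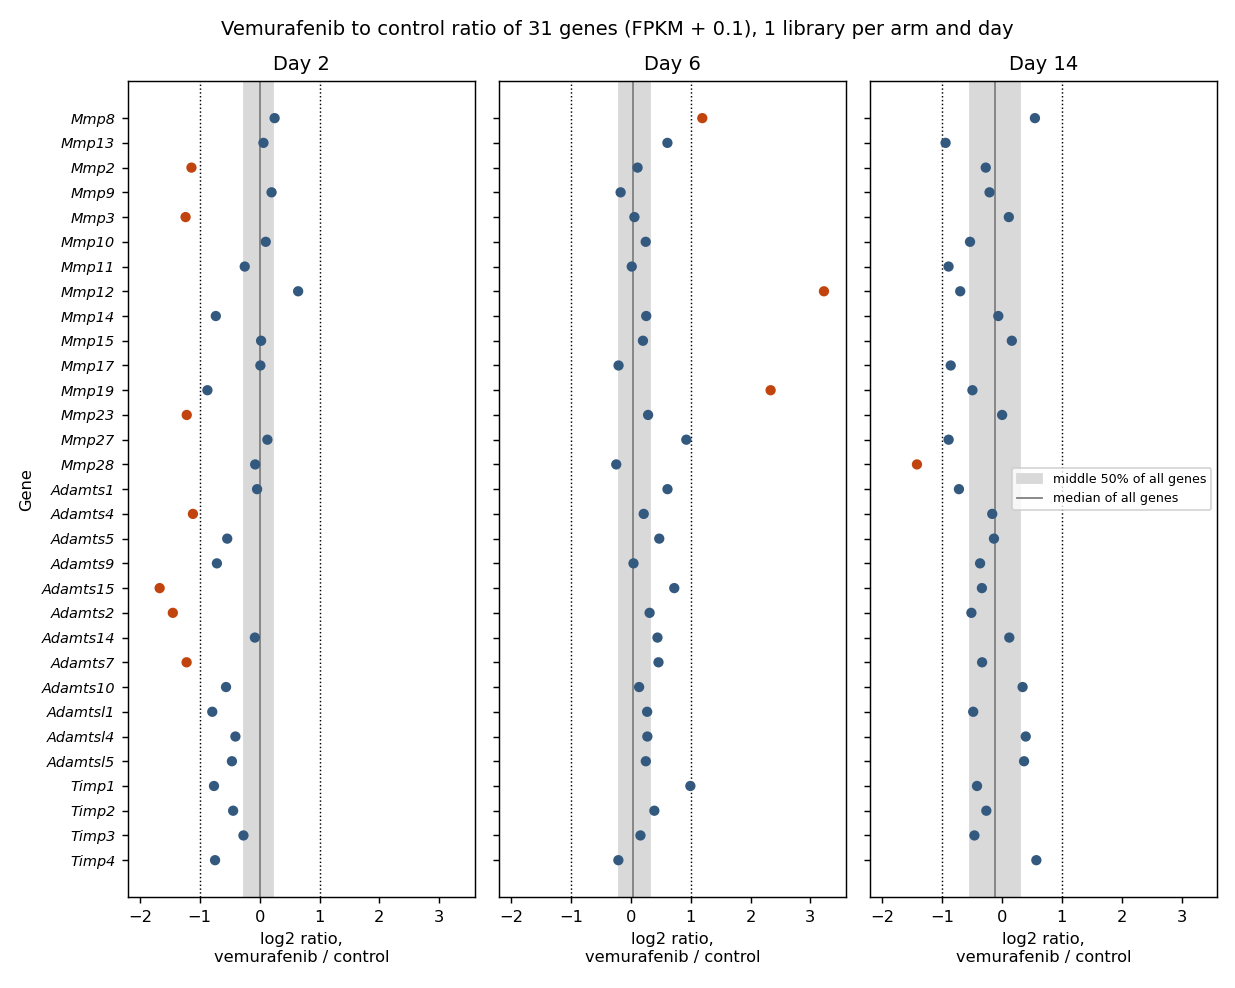
Log2 ratio of vemurafenib to control for the 31 genes on days 2, 6 and 14, with the middle 50% of all 13392 genes in grey, their median as a line and 2-fold as dotted lines; orange points lie past 2-fold and each rests on 1 library per arm. Of the 31 points, 7 lie past 2-fold on the low side on day 2, 3 on the high side on day 6 (Mmp12 at 3.23) and 1 on the low side on day 14.

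Scaling moved these counts. Rescaling each library to the same total shifted the median log2 ratio of all genes to 0.18, 0.40 and -0.25 on days 2, 6 and 14, and the members' medians stayed -0.46, 0.22 and -0.21 relative to it. With it 20 members were lower on day 2, all 31 were higher on day 6 and 25 were lower on day 14, while the share of all genes higher on day 6 was 83.7%, against 54.5% as deposited. The shares of all genes at least 2-fold higher and lower with vemurafenib became 2.32% and 2.14% on day 2, 10.8% and 2.82% on day 6 and 2.64% and 11.4% on day 14, and with scaling to the same median they were 6.29% and 4.82% on day 14. With total scaling, Mmp2 (-0.95) and Adamts4 (-0.93) came inside 2-fold on day 2.

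The time course within each arm showed where the arms parted. In the vemurafenib arm, 16 members were at least 2-fold higher and 5 lower on day 6 than on day 2, against 9.43% and 6.7% of all genes. In the control arm, 8 were higher and 6 lower, against 9.98% and 11.8% of all genes (9 and 4 with upper quartile or total scaling). In the vemurafenib arm, Mmp9 (-1.13), Mmp10 (-1.11), Mmp3 (1.14), Mmp27 (1.02) and Adamts14 (0.976) lay near the 2-fold line. Scaling can therefore move the counts of that arm as well. The 8 that were higher in the control arm (Mmp2, Mmp11, Mmp12, Mmp14, Mmp23, Adamts2, Timp2 and Timp3) were all among the 16. The others of the 16 included Mmp3, Mmp19, Adamts4, Adamts7 and Adamts15, of which Mmp3, Adamts4, Adamts7 and Adamts15 were also 2-fold lower with vemurafenib on day 2, and both ratios use the vemurafenib day 2 library. From day 6 to day 14, 2 members were higher and 20 lower in the vemurafenib arm, against 7.46% and 14.6% of all genes, and 2 were higher and 12 lower in the control arm, against 12.6% and 10.1% of all genes. Over the whole interval from day 2 to day 14, 10 were higher and 9 lower in the vemurafenib arm (10.4% and 14.3% of all genes), and 5 were higher and 9 lower in the control arm (18.8% and 19.4% of all genes). The arms share no library, and their difference was not tested, with 1 column each.

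The 20 members under the filter were too low to compare. Highest in the control day 2 library were Mmp1a (0 to 0.0858 FPKM over the 6 libraries), Mmp1b (0 to 1.31) and Mmp25 (0.161 to 1.66), and highest in vemurafenib day 2 was Mmp24 (0.0222 to 0.155). Highest in vemurafenib day 6 were Mmp7 (0 to 0.145 FPKM), Mmp16 (0.0456 to 0.533), Adamts16 (0.0105 to 1.05), Adamts17 (0.0682 to 0.766) and Adamtsl3 (0.0349 to 0.164), and in control day 6 Adamts13 (0 to 0.0355) and Adamts19 (0.0199 to 0.918). Highest in vemurafenib day 14 was Mmp21 (0 to 0.117 FPKM). The other 8 were highest in control day 14: Mmp20 (0 to 0.109 FPKM), Adamts3 (0.0171 to 0.348), Adamts6 (0.0922 to 0.437), Adamts8 (0.150 to 0.499), Adamts12 (0.166 to 1.11), Adamts18 (0.0226 to 1.95), Adamts20 (0.193 to 2.42) and Adamtsl2 (0.0824 to 1.42). Adamts13, the protease of von Willebrand factor, is made mainly in liver, and Mmp20, enamelysin, in teeth.

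Other genes of the pathway were read from 3 lists. Of the activators and regulators, 17 of 20 passed the filter, and from day 2 to day 6, 4 rose and 1 fell, against 2.93% and 1.81% of all genes. Among them Ctsk, the collagen-degrading cathepsin K, rose by 2.30 ± 0.32 log2 units (limma, adjusted p = 0.015) and Plaur, the urokinase receptor, which concentrates plasmin formation at the cell surface, fell by 2.24 ± 0.39 (adjusted p = 0.0294). From day 2 to day 14, 3 rose and 4 fell, against 7.71% and 10.2% of all genes. The largest fall was that of Plaur (-5.21 ± 0.39, limma, adjusted p = 0.00042). Reck, a membrane-anchored inhibitor of MMPs, rose by 1.88 ± 0.37 over the same interval (adjusted p = 0.0163). On day 6, 14 of the 17 were higher with vemurafenib (median 0.48), against 54.5% of all genes. At least 2-fold higher were 5, against 5.29% of all genes. Among these 5 were the lysosomal proteases Ctsl, at 1287 FPKM with vemurafenib and 317 FPKM in the control, and Ctss, at 759 FPKM with vemurafenib and 218 FPKM in the control.

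The ADAM sheddases and the substrates had their own courses. Of 8 ADAM genes past the filter, Adam12 rose by day 6 (3.06 ± 0.44 log2 units, limma, adjusted p = 0.0155), and Adam8, an enzyme of neutrophils and macrophages, fell by 5.09 ± 0.45 from day 2 to day 14 (adjusted p = 0.000804). Adam8 was at 57.8 FPKM with vemurafenib and 14.0 FPKM in the control on day 6, the only ADAM gene past 2-fold on that day. Of 15 substrate genes, 9 rose by day 6 and none fell, against 2.93% and 1.81% of all genes. The median change of the 15 was 2.34, against 0.01 over all genes. Col1a1, a chain of type I collagen, rose by 4.27 ± 0.41 (adjusted p = 0.005), and Fn1, fibronectin, by 3.53 ± 0.38 (adjusted p = 0.00704). Spp1, osteopontin, which MMPs cleave, went the other way and fell by 6.42 ± 0.64 from day 2 to day 14 (adjusted p = 0.00129). The substrate list shares Col1a1, Col3a1 and Dcn with the fibroblast markers, so the 2 counts are not independent.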

How the data were processed

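Full-thickness wound skin of C3H mice gave 6 columns of RNA values, 1 for each arm (vemurafenib, control) on days 2, 6 and 14. Each column was treated as 1 library. Reads were mapped by the authors to mm9 using TopHat, then quantified in cuffquant (corrected for fragment bias and multiply mapped reads) and scaled in cuffnorm. The cuffquant run also used compatible-hits normalization, which counts only fragments compatible with annotated transcripts. TopHat2 and Cuffdiff also appear in the submitters' processing notes, and versions are not given in the sources used here. The labels name single-end and the methods paired-end reads. The deposited values are FPKM per gene, without counts, so depth is unknown and no counting interval is given.

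Of 23940 entries, 27 whose symbols had become dates were left out. Genes averaging 1 FPKM or more were kept, and 0.1 FPKM was added before log2. Ratios between single libraries were described with a 2-fold line and no test. limma 3.58.1 in R 4.3.3 (empirical Bayes with trend, Benjamini-Hochberg adjustment over 13392 genes) fitted arm plus day, with 2 residual degrees of freedom. The residual holds the differences between arms that vary with the day, and p-values measure only that spread. The fit was tested on simulated data. Alternatives were a pseudocount of 1 FPKM, other filters, 3 scalings, each library or day left out, weights for columns in the form of averages, and no trend.

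All members with a mean of at least 1 FPKM are named with their values, and the others by range and highest library. Opposite moves of the arms are given where each arm changed by at least 0.25 log2 units and both together by 1. The members, families, gene lists and markers were chosen with earlier results of these data known. Coordinates of genes are mm9 (GENCODE for NCBIM37), and promoter windows are from RefSeq, GRCm38.p6. Python 3.11.15, numpy 2.4.6, pandas 2.3.3 and matplotlib 3.10.9 were used.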

Additional observations from a re-analysis of the deposited data

Results flagged for a closer look

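In 6 genes the arms moved in opposite directions between the same days by at least 0.25 log2 units each and 1 log2 unit or more in all, on the log2(FPKM + 0.1) scale. Without the lower limit for each arm, Mmp3 (day 2 to day 6, 1.14 with vemurafenib and -0.16 in the control arm) and Adamts1 (day 6 to day 14, -1.08 with vemurafenib and 0.247 in the control arm) would join them. With 1 library per arm and day, none of these differences was tested. From day 6 to day 14, Mmp12 changed by -2.48 in the vemurafenib arm and by 1.44 in the control arm, the widest gap of the set. Mmp19 changed by 2.77 with vemurafenib and by -0.44 in the control arm from day 2 to day 6. Mmp27, a secreted enzyme of the chromosome 9 cluster, changed by -1.33 with vemurafenib and by 0.49 in the control arm from day 6 to day 14, and by -0.30 with vemurafenib and by 0.72 in the control arm from day 2 to day 14. Mmp28 changed by -0.76 with vemurafenib and by 0.42 in the control arm from day 6 to day 14, at levels of at most 1.25 FPKM. Adamts5 changed by 0.58 with vemurafenib and by -0.43 in the control arm from day 2 to day 6. Adamts15 changed by 0.90 with vemurafenib and by -0.44 in the control arm from day 2 to day 14, where the vemurafenib day 2 library, at 2.30 FPKM, was the lowest of the 6.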

How the results depend on the processing

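No paired analysis was possible because each group has 1 column of values and the labels carry no replicate numbers. The 27 calls of members kept their direction under the alternatives that tested them. The members' median did not in 2 of the fitted comparisons: for the common vemurafenib effect it was -0.10, against 0.04 with total scaling and 0.07 without either day 2 library, and for day 14 minus day 2 it was 0.20, against -0.09 when genes averaging under 5 FPKM were dropped, -0.02 with a weight of 2, -0.50 without control day 14 and -0.70 without vemurafenib day 2. With no filter on the mean, the genes called were 0 for the common vemurafenib effect and 31, 31 and 12 for days 6 minus 2, 14 minus 6 and 14 minus 2, and the members called were 1, 0 and 0. The vemurafenib effect was called in 0 genes when 5 FPKM was the lowest mean kept, in 13 without day 2, 11 without day 6 and 0 without day 14, and in 0 to 13 genes with a library left out. With a library left out, day 6 minus day 2 was called in 0 to 715 genes and 0 to 9 members, day 14 minus day 6 in 0 to 826 genes and 0 to 9 members, and day 14 minus day 2 in 0 to 2540 genes and 0 to 13 members, each 0 being without a day 14 library. Day 6 minus day 2 was called in 3 members without the trend (Mmp8, Mmp11 and Mmp14), where Adamts2 also lost its call for day 14 minus day 2 (adjusted p = 0.0578), and day 14 minus day 6 in 760 genes with median scaling. Without control day 2 or control day 6, Mmp13, Timp2 and Timp3 lost their calls for day 6 minus day 2. For day 14 minus day 2, Adamts14, Mmp11 and Timp2 lost theirs without control day 2, these and Adamts2 without vemurafenib day 2, and Adamts14 without vemurafenib day 6, and for day 14 minus day 6 Adamts14 and Mmp11 lost theirs without vemurafenib day 6. The cause was not tested.

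The members' median ratio was -0.27 on day 2 both with no filter and with total scaling, 0.62 on day 6 with total scaling, and -0.22, -0.16 and -0.46 on day 14 with a pseudocount of 1 FPKM, median scaling and total scaling. Past 2-fold were 6 members on day 6 with no filter and with total scaling, and on day 14 0 with a pseudocount of 1 FPKM or a mean of at least 5 FPKM, 6 with no filter and 4 with total scaling. With no filter, 32 members in the vemurafenib arm and 22 in the control arm differed 2-fold between days 2 and 6. Adamts7 on day 2 came to -0.74 with a pseudocount of 1 FPKM. Depth is unknown, so the error of values below about 1 FPKM cannot be given.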
